A study of Sus scrofa with 220 samples.

Results

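The mitochondrial carriers and uncoupling proteins of the pig embryo were taken as all gene entries whose Ensembl pig symbol begins with SLC25A or UCP followed by a digit. Of 22840 entries, 34 matched, and 31 were kept because they exceeded 1 TPM (transcripts scaled for gene length and library size) in at least 3 of 220 cells. The 3 that were not kept were SLC25A31, the ADP/ATP exchanger of germ cells, with 193 counts in all, and SLC25A45 and UCP3, the uncoupling protein of muscle, each with 0 counts. Another 10 symbols of the family (SLC25A6, SLC25A10, SLC25A11, SLC25A21, SLC25A28, SLC25A30, SLC25A33, SLC25A34, SLC25A36 and SLC25A41) were not analysed here.

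Mitochondrial carriers are nuclear-encoded proteins that, with few exceptions, sit in the inner mitochondrial membrane. They exchange nucleotides, phosphate, carboxylates, amino acids and cofactors between the matrix and the cytosol, and so couple respiration and biosynthesis inside the organelle to the rest of the cell. Uncoupling proteins belong to the same family: UCP1 leaks protons in brown fat, whereas UCP2 is found in many proliferating and immune cells and also exports short dicarboxylates such as malate and aspartate. Pluripotent cells change their balance of respiration and glycolysis as they pass from the naive to the primed state, and the citrate carrier SLC25A1 supplies cytosolic citrate for fatty acid synthesis.

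Cells were sequenced with Smart-seq2, a protocol that reads along whole polyadenylated transcripts of single cells, from embryos without genetic or drug treatment. Embryos were flushed from crossbred Large White and Landrace sows aged 2 to 3 years that had been artificially inseminated. The groups were morula (M, days 4 to 5, 47 cells of 8 embryos, of which 1 cell could be tied to no embryo), inner cell mass (EB ICM, 24 cells, 7 embryos) and trophectoderm (EB TE, 28 cells, 10 embryos) of early blastocysts (days 5 to 6), epiblast (LB EPI, 25 cells, 4 embryos) and hypoblast (LB HYPO, 36 cells, 5 embryos) of late blastocysts (days 7 to 8), and epiblast (Sph EPI, 48 cells, 4 embryos) and hypoblast (Sph HYPO, 12 cells, 3 embryos) of spherical embryos (days 10 to 11). The trophectoderm of late blastocysts was removed by immunosurgery, the layers of spherical embryos were parted by hand, and neither stage has TE cells in these data. Letters in the cell identifiers gave the embryo, and the counts of all cells sharing an embryo and a label were added up, giving 41 sums. In 6 sums there was 1 cell: EB ICM AD and AI, EB TE AF, AG and E6-ER, and LB HYPO AL. The largest sum held 19. Values by embryo are CPM, the counts of these sums scaled to library size with TMM. In such a sum, fewer cells with a transcript and less transcript per cell cannot be told apart. By the paper's sexing of cells, most M, EB ICM and Sph EPI cells were male. Most EB TE and LB HYPO cells were female, and all Sph HYPO cells male. Both epiblast labels held both sexes. Sex did not enter the fits, so label and sex are partly mixed. The paper found X genes higher in females up to the late blastocyst. Which carriers lie on the X was not examined.

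The cells held 1012604 to 5696373 gene counts each, and the median number of genes detected ran from 4939 in EB TE to 6558 in Sph EPI. Of the TE markers, KRT8 had 12107 to 40865 CPM and DAB2 1172 to 3538 CPM in 9 TE sums, but in embryo E6-ER, a single cell of less certain embryo, GATA2, GATA3, DAB2 and KRT8 were at 0 and KRT18 had 1 count. This sum went against its label, and TE levels and comparisons are therefore also given without it (9 TE embryos) where it moved them. The mean log2(CPM + 1) of 5 HYPO markers was 6.21 to 8.01 in the HYPO sums, against 1.21 to 4.02 in the EPI sums, with the highest EPI value in LB embryo AO. The 5 EPI markers had 4.47 to 6.78 in EPI sums and 1.10 to 2.24 in HYPO sums.

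The phosphate carrier SLC25A3 and the ADP/ATP exchanger SLC25A5 (ANT2) made up most of the transcripts of the 31 carriers analysed here at every stage. Compared per transcript length, SLC25A3 led with a mean of 2254 TPM over the 7 labels, and SLC25A5 followed with 1371 TPM. The peroxisomal cofactor carrier SLC25A17 (136 TPM), the ADP/ATP exchanger SLC25A4 (ANT1, 119 TPM) and SLC25A1 (84.5 TPM) came next. In M, SLC25A17 at 109 ± 46.1 and SLC25A4 at 95.4 ± 59.97 TPM (SD, n = 8) differed by less than either SD. Of the other carriers, 18 of the 31 lay from 10 to 100 TPM, counting SLC25A1, and 9 lay under 10 TPM. The heat map of levels by label shows these tiers, and 7 carriers had a mean of 0 in at least 1 label.

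**Figure D1:**
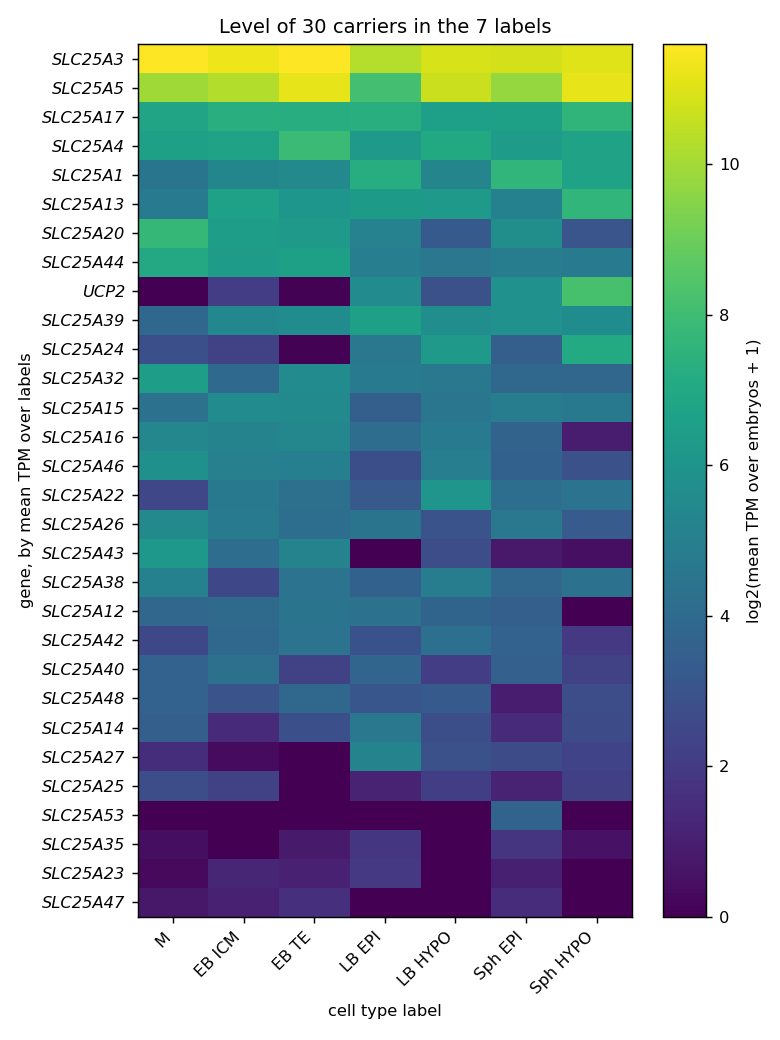
Heat map of log2(mean TPM over embryos + 1) for 30 carriers (rows, by mean TPM) in the 7 cell type labels (columns). SLC25A3 and SLC25A5 are bright in every column, UCP2 is dark in M and EB TE, and SLC25A43 is dark in LB EPI, Sph EPI and Sph HYPO.

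The summed TPM of the 31 carriers was lowest in LB EPI, with 2477 ± 376 (SD, n = 4 embryos), and highest in EB TE, with 6453 ± 976 (n = 10), or 6512 ± 1016 without E6-ER (n = 9). The LB EPI embryos, at 2098 to 2970 TPM, lay below all embryos of the other labels, the nearest of which were at 3047 in LB HYPO and in Sph EPI. SLC25A3 and SLC25A5 together held 62.3% of the sum in LB EPI and 76.7 to 82.8% in the other labels. Within that pair the balance shifted between labels: SLC25A5 stood at 0.261 of the SLC25A3 level in LB EPI and 0.335 in M, but at 0.899 in LB HYPO and 1.08 in Sph HYPO. In Sph HYPO this ratio of TPM ran from 0.908 to 1.26 over 3 embryos, above the 0.311 to 0.646 of the 4 Sph EPI embryos. These sums and ratios are a description, without a test.

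**Figure D2:**
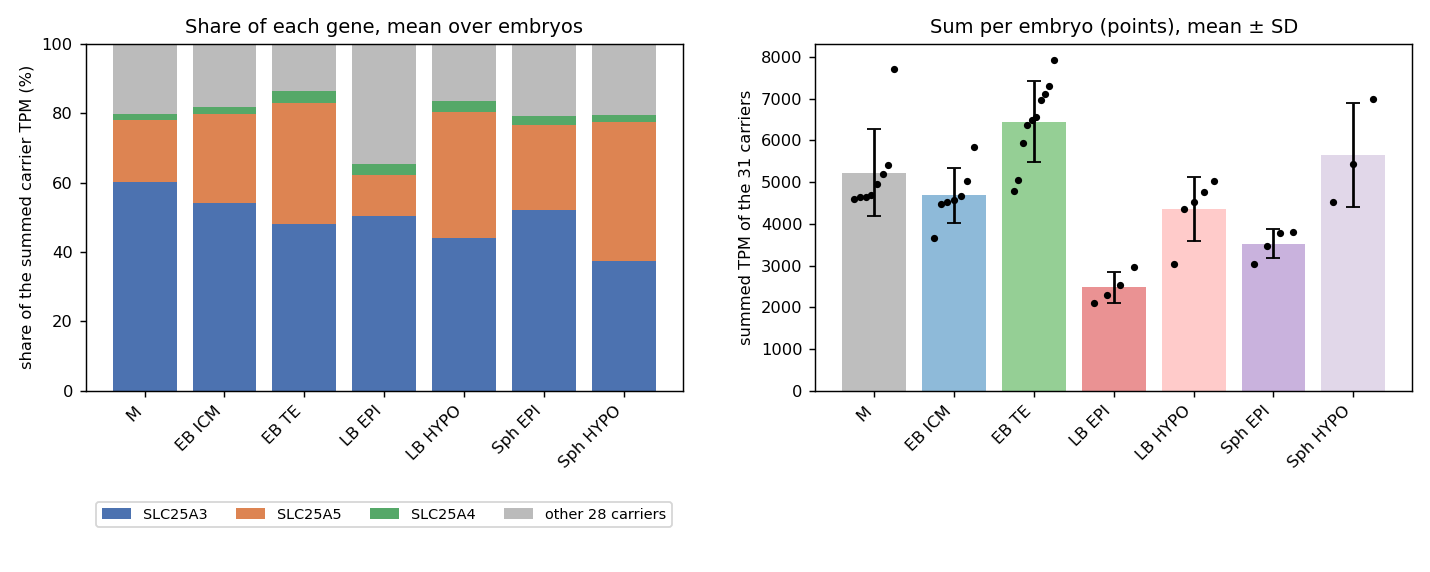
Left, mean share (%) of SLC25A3, SLC25A5, SLC25A4 and the other 28 carriers in the summed carrier TPM of each label. Right, the summed TPM per embryo (points) with the mean (bar) and SD (error bar). The 4 LB EPI embryos lie at 2098 to 2970 TPM, below the embryos of every other label.

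Most carriers were not seen in every cell of a label. The number of carriers over TPM 1 in at least 50% of cells was 17 in M, 15 in EB ICM and EB TE, 14 in Sph EPI, 13 in Sph HYPO, 12 in LB HYPO and 10 in LB EPI. SLC25A3 was over TPM 1 in all 220 cells, and SLC25A5 in all EB, LB HYPO and Sph HYPO cells. At the other end, the orphan carrier SLC25A53 was over TPM 1 in 5 of 48 Sph EPI cells and in no other cell.

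Labels were compared with edgeR's quasi-likelihood test on the embryo sums, and a gene was called at an adjusted p (Benjamini-Hochberg over 14721 genes) under 0.05. Over the 7 labels together, 10 of the 31 carriers differed, a share of 32.3% where 37.7% of all tested genes were called. The called carriers were UCP2 (adjusted p = 4.64e-08), SLC25A3 (2.2e-05), SLC25A5 (0.000336), SLC25A43 (0.000505), SLC25A27 (0.00163), SLC25A24 (0.00222), SLC25A1 (0.00252), SLC25A53 (0.00498), SLC25A25 (0.0117) and SLC25A20 (0.0322). SLC25A53 passed the filter on low levels only through its 5 Sph EPI cells, so it had to differ, and its call is a description. Without the less certain cells, among them the TE sum E6-ER, the count was 11, with SLC25A22 added (adjusted p = 0.0253). By role, the 10 included 4 of the 6 nucleotide and phosphate carriers, 2 of the 3 uncoupling proteins and relatives and the citrate carrier, but none of the 6 amino acid carriers. The share of all genes depended on the tool. DESeq2 called 10 carriers where it called 17.9% of all genes, and limma 14 where it called 32.6%.

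Between the naive and the primed end of the pluripotent cells, that is the mean of M and EB ICM against the mean of LB EPI and Sph EPI, 11 of 31 carriers differed (35.5%), where 21.8% of all genes were called. Of these, 6 were higher in M and ICM and 5 were lower, against 7.4% and 14.3% of all genes. The median log2 fold change was 0.18 over the carriers and -0.18 over all genes. Between EB ICM and LB EPI 3 carriers were called (2.91% of all genes), and between LB EPI and LB HYPO 1 carrier (1.92% of all genes). Libraries came in 8 pools, and in the cells of the first 4 or the last 4 pools alone edgeR called 9 and 7 carriers over the 7 labels (all genes 28.3% and 22.3%). For M and ICM against EPI it called 9 and 4 (all genes 13.4% and 14%), for ICM against LB EPI 1 and 0 (all genes 0.836% and 1.32%) and for LB EPI against LB HYPO 1 and 0 (all genes 0.768% and 0.435%).

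In the remaining comparisons no carrier was called by edgeR, and the counts below stand beside the share of all genes that passed the same rule. For M against EB ICM edgeR called 2.45% of all genes. There 9 of 31 carriers had an unadjusted p under 0.05 (all genes 23.4%), and DESeq2 called 4 (all genes 8.9%). For EB ICM against EB TE edgeR called 0.754% of all genes, and leaving out the sum E6-ER gave 0 carriers too. An unadjusted p under 0.05 was reached by 7 carriers (all genes 18.9%), and DESeq2 called 1 (all genes 3.47%). For LB EPI against Sph EPI edgeR called 0.156% of all genes, 6 carriers had an unadjusted p under 0.05 (all genes 13.6%), and DESeq2 called 1, SLC25A53 (all genes 6.49%). For Sph EPI against Sph HYPO edgeR called 1.13% of all genes. There 6 carriers had an unadjusted p under 0.05 (all genes 15.2%), DESeq2 called 4, SLC25A53 among them (all genes 11.5%) and limma 2 (all genes 2.49%). For the stage difference in EPI against HYPO edgeR called 0.0408% of all genes, 3 carriers had an unadjusted p under 0.05 (all genes 10.8%), and DESeq2 called 1, SLC25A35 (adjusted p = 0.00457, all genes 4.07%). Its largest fitted values were those of SLC25A35 and SLC25A12, each with a group at 0 counts, at edgeR adjusted p = 0.604 and 0.396.

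Among the nucleotide and phosphate carriers, SLC25A3 (ENSSSCG00000000886) imports the phosphate that ATP synthase needs. Its CPM was 2033 to 2994 (median 2589) over the M embryos, 1597 to 2345 (median 2025) in EB ICM and 2015 to 3099.8 (median 2355) in EB TE. In LB EPI it was 612 in AN, 1288 in AO, 849 in AP and 1403 in AQ. All 4 LB EPI embryos lay below every M, ICM and TE embryo. Sph EPI had 1995 in C, 1451 in D, 1409 in E and 2028 in F, while LB HYPO had 1104 to 2010.5 (median 1354). Sph HYPO had 1555 in C, 2353 in E and 1668 in F. LB HYPO overlapped with LB EPI and with both Sph labels. All LB EPI embryos lay below every Sph embryo, though narrowly so for Sph EPI. M and ICM exceeded EPI by a log2 fold change of 0.75 (SE 0.14, adjusted p = 0.00031), and ICM exceeded LB EPI by 0.90 (SE 0.22, adjusted p = 0.0433). The first call was kept in all 23 fits that left out 1 embryo. The second was lost in 9 of 11 such fits (adjusted p 0.0358 to 0.143) and in the first and the last 4 pools (0.215 and 0.125).

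SLC25A5 (ENSSSCG00000012623) exchanges cytosolic ADP for matrix ATP and is the isoform of dividing cells. SLC25A4 and SLC25A5 have nearly the same sequence, and only uniquely mapped reads were counted, so the counts of both are uncertain to that extent. Its CPM ranged widely within M, 171 to 1418 (median 696), and was 451 to 1429.7 (median 1013) in EB ICM and 598 to 3087 (median 1852) in EB TE. The lowest TE value belonged to E6-ER, and the other TE embryos started at 1004 CPM. LB EPI stood lowest with 209.5 in AN, 191 in AO, 488 in AP and 84.7 in AQ. LB HYPO had 425 in AL, 1754 in AM, 889.6 in AN, 2218 in AO and 1764 in AP. Only its embryo AL, a single cell, fell within the LB EPI range.

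LB EPI was lower than LB HYPO by a log2 fold change of -2.57 (SE 0.55, adjusted p = 0.0309), and HYPO was higher in each of the 3 late blastocysts with both lineages. With the embryo as a block the log2 fold change was -2.51 and the adjusted p 0.058, and the call was lost in 6 of the 9 fits that left out 1 embryo (adjusted p 0.0162 to 0.0992) and in the last 4 pools (0.448). EB ICM was higher than LB EPI by 1.95 (SE 0.43, adjusted p = 0.0232), with 451 CPM in ICM embryo AI, a single cell, inside the LB EPI range. That call was lost in 3 of 11 fits that left out 1 embryo (adjusted p 0.00668 to 0.0735) and in the first and the last 4 pools (0.0653 and 0.198). In spherical embryos, Sph EPI had 1194 in C, 583 in D, 816 in E and 606 in F, and Sph HYPO had 1913 in C, 2487 in E and 1417 in F. These did not overlap, but the log2 fold change of -1.26 (SE 0.31, adjusted p = 0.0933) missed the threshold. LB EPI also lay below Sph EPI in all embryos, with a log2 fold change of -1.65 (SE 0.46, adjusted p = 0.218) that missed it too. EB ICM and EB TE differed by -0.88 (SE 0.29, adjusted p = 0.113), and without E6-ER by -0.98 (SE 0.25, adjusted p = 0.0532), with TE higher in 6 of 7 embryos with both. Label and sex are partly mixed across embryos in this comparison and in that of LB EPI with LB HYPO. The part of sex was not tested.

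SLC25A4, the isoform of muscle and heart, was not called by edgeR in any comparison. It ranged from 76.7 ± 15.4 TPM in LB EPI (n = 4) to 242 ± 222 TPM in EB TE (SD, n = 10) and 266 ± 222 TPM without E6-ER, a gap within the TE spread. The ATP-Mg/phosphate carriers, which load nucleotides into the matrix under control of calcium, were low or patchy. SLC25A24 (ENSSSCG00000006848) had CPM of 0 in AN, 20.3 in AO, 15.3 in AP and 31.4 in AQ in LB EPI, and 0 in AL, 35.2 in AM, 204 in AN, 25.2 in AO and 1.97 in AP in LB HYPO. In Sph EPI it was 2.75 in C, 17.5 in D, 7.05 in E and 3.52 in F, and in Sph HYPO 0 in C, 224 in E and 99.4 in F. Each of these labels held embryos near 0 beside others with clear counts, except Sph EPI. In M and EB ICM most embryos were at or near 0, with highest values of 15.9 and 22 CPM, and the 10 TE sums held 1 count in all. By cells, 25 of 36 LB HYPO and 10 of 12 Sph HYPO cells were over TPM 1, against 8 of 25 LB EPI and 14 of 48 Sph EPI cells. Sph EPI and Sph HYPO differed by -3.77 (SE 1.63, adjusted p = 0.309).

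SLC25A25, of the same subgroup, had 0 counts in all 10 TE sums, 469 in EB ICM and 867 in M. Against a floor of 3 counts over TE the ICM level was 175-fold higher, with an adjusted p of 0.0658 by edgeR (0.0625 without E6-ER). DESeq2 gave an adjusted p of 0.000732 and edgeR with all labels in one fit 0.00632. These were the only 2 calls among 10 alternative settings, whose adjusted p reached 0.628. The call of SLC25A25 over the 7 labels was lost with limma (adjusted p = 0.146) and in the first and the last 4 pools (0.116 and 0.0925). Over TPM 1 were 6 of 24 ICM cells but 0 of 28 TE cells (a limit of 10.7%), so the fold is no lower bound. SLC25A23 held 249 counts in all cells together and was not called.

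**Figure D3:**
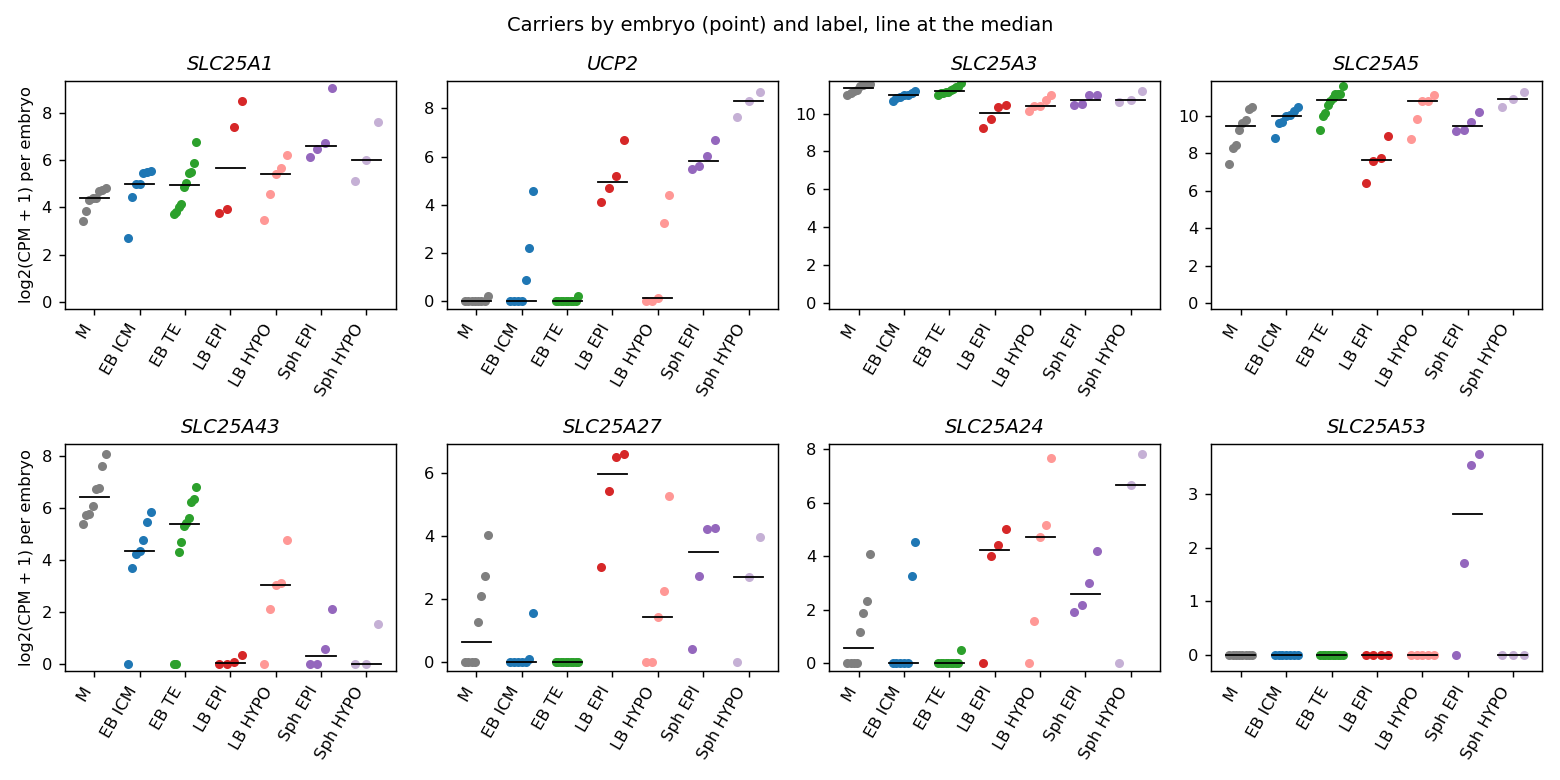
log2(CPM + 1) of 8 carriers per embryo (points) in the 7 labels, with a line at the median of each label. UCP2 is at or near 0 in M and EB TE and highest in the 3 Sph HYPO embryos (198 to 414 CPM), SLC25A43 runs the other way between M and LB EPI, and SLC25A53 has counts only in 3 Sph EPI embryos.

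UCP2 (ENSSSCG00000014833) had the smallest p of the family. In M it had 1 count over 8 embryos, and in EB TE 1 count over 10 embryos. EB ICM had counts in 3 of 7 embryos, with 23 CPM in AC, 3.64 in AG and 0.831 in AD. From the late blastocyst on, every EPI embryo expressed it: LB EPI had 102 in AN, 16.5 in AO, 25.1 in AP and 36.2 in AQ CPM, and Sph EPI 44.4 in C, 102 in D, 47.2 in E and 64.8 in F. All EPI embryos but LB EPI AO lay above the highest ICM embryo. LB HYPO had 20.4 in AL, 8.55 in AM, 0 in AN, 0.119 in AO and 0 in AP CPM, and Sph HYPO 414 in C, 198 in E and 317 in F. Sph HYPO was thus above every other sum, while 3 of 5 LB HYPO embryos held 3 counts or fewer.

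By cells, UCP2 was over TPM 1 in 12 of 12 cells (100%, 95% interval 73.5 to 100%) of Sph HYPO, 39 of 48 cells (81.2%, 95% interval 67.4 to 91%) of Sph EPI and 12 of 25 cells (48%, 95% interval 27.8 to 68.7%) of LB EPI. It was over TPM 1 in 3 of 24 ICM and 4 of 36 LB HYPO cells, and in 0 of 47 M cells (a limit of 6.38%) and 0 of 28 TE cells (a limit of 10.7%). UCP2 was lower in M and ICM than in EPI (edgeR adjusted p = 6.54e-05), with no size given because M held 1 count. Between single pairs of labels the calls differed by tool. For M against ICM the adjusted p was 0.0784 by edgeR, 0.0421 by DESeq2 and 0.0052 by edgeR with all labels in one fit. For ICM against TE it was 0.0972 by edgeR, 0.111 without E6-ER and 0.0046 with all labels in one fit. ICM against LB EPI had a log2 fold change of -3.55 (SE 1.79, adjusted p = 0.251). LB EPI against Sph EPI gave -0.45 (SE 0.68, adjusted p = 0.893). Sph EPI against Sph HYPO gave a log2 fold change of -2.24 (SE 0.54, adjusted p = 0.0819), with all 3 shared embryos higher in HYPO and no overlap between the groups, while DESeq2 (adjusted p = 0.000896) and limma (0.0233) called it. In late blastocysts the direction was the other way, 2.95 (SE 1.70, adjusted p = 0.36), with EPI higher in all 3 shared embryos. The difference between the stages had a log2 value of 5.31 (SE 1.85, adjusted p = 0.349) without the embryo as a block. With the block the edgeR adjusted p was 0.0213, the only 1 of 10 alternative settings that called it (adjusted p up to 0.808). The LB HYPO sums that share an embryo with LB EPI held 0 counts in AN, 3 in AO and 0 in AP. No size is therefore given for the block.

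SLC25A27 (ENSSSCG00000001720), known as UCP4 and best known from neurons, had a different course. In LB EPI it had 7.08 in AN, 42.1 in AO, 97 in AP and 90.3 in AQ CPM, and in Sph EPI 5.73 in C, 18.4 in D, 0.32 in E and 18 in F. EB ICM held 15 counts, of which 14 were in AG, and EB TE held 0, so every LB EPI embryo lay above every ICM embryo. M had 0 to 15.5 (median 0.712) CPM, LB HYPO 0 to 37.5 (median 1.72) and Sph HYPO 0 to 14.8 (median 5.52). ICM was lower than LB EPI by a log2 fold change of -7.60 (SE 1.76, adjusted p = 0.0288), a call lost in 5 of 11 fits that left out 1 embryo (0.00195 to 0.0918), and M and ICM were lower than EPI by -4.63 (SE 1.22, adjusted p = 0.00844). In the last 4 pools both calls were lost (0.225 and 0.072). Of LB EPI cells 16 of 25 were over TPM 1, against 11 of 48 in Sph EPI. Between M and ICM it had the largest fold toward M among carriers with at least 100 counts, 3.35 (SE 2.01, adjusted p = 0.36), which missed the threshold. SLC25A14 (UCP5) was highest in LB EPI by mean, 23.9 ± 31.4 TPM, with an SD larger than the mean, and was not called. Its log2 fold changes were 3.65 (SE 1.62, adjusted p = 0.365) for LB EPI over Sph EPI and -2.21 (SE 2.18, adjusted p = 0.839) for ICM over TE (-2.36 without E6-ER), the latter turning in sign with the embryo as a block (0.42). UCP3, whose gene is the neighbour of UCP2 in the RefSeq annotation of the later Sscrofa11.1 assembly, had 0 counts in every cell.

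The citrate carrier SLC25A1 (ENSSSCG00000010116) was low in M, 9.76 to 27.4 (median 19.99) CPM, and somewhat higher in EB ICM, 5.59 to 45.6 (median 31.1), and EB TE, 12.2 to 109 (median 30.2). In LB EPI it split by embryo, with 12.7 in AN, 14.4 in AO, 168 in AP and 368 in AQ. Sph EPI had 89.2 in C, 70.4 in D, 529.6 in E and 104 in F, and all 4 lay above every M and ICM embryo. LB HYPO had 9.95 in AL, 50.2 in AM, 72.9 in AN, 41.9 in AO and 22.8 in AP, and Sph HYPO 196 in C, 64.2 in E and 33.9 in F, both overlapping their EPI. M and ICM were lower than EPI by -2.75 (SE 0.51, adjusted p = 0.000431), within -3.04 to -2.20 when each embryo was left out. The call was lost in the last 4 pools (adjusted p = 0.0683), and the call over the 7 labels in the first and the last 4 (0.0729 and 0.156). ICM against LB EPI alone gave -2.18 (SE 0.86, adjusted p = 0.164), and M against ICM -0.71 (SE 0.61, adjusted p = 0.59). LB against Sph EPI gave -0.48 (SE 1.01, adjusted p = 0.948). EPI against HYPO gave 1.76 (SE 0.95, adjusted p = 0.321) in late blastocysts, turning to -0.71 with the embryo as a block, and 1.08 (SE 0.89, adjusted p = 0.578) in spherical embryos. The share of cells over TPM 1 was 28 of 47 in M, 17 of 24 in ICM, 21 of 25 in LB EPI and 47 of 48 in Sph EPI. It is the only di- or tricarboxylate carrier of the list that was analysed here.

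Among the fatty acid and cofactor carriers, SLC25A20 (ENSSSCG00000011366) brings acylcarnitines into the matrix for beta-oxidation. It was 125 to 361 (median 214) CPM in M and 39.2 to 152 (median 76.3) in EB ICM, against 29.4 to 50.7 (median 38.5) in LB EPI and 12.9 to 81.7 (median 66.1) in Sph EPI. Every M embryo lay above every EPI embryo, and ICM overlapped with EPI. The log2 fold change of M and ICM over EPI was 1.57 (SE 0.34, adjusted p = 0.00215), and M against ICM gave 1.17 (SE 0.35, adjusted p = 0.0784), called by DESeq2 (0.0052) and limma (0.037). The call for M and ICM over EPI was lost with all labels in one fit (adjusted p = 0.266) and in the first 4 pools (0.194). The call over the 7 labels was lost in the first and the last 4 pools (0.26 and 0.142) and in 4 of 41 fits that left out 1 embryo (0.0177 to 0.0635). EPI was higher than HYPO in all 3 shared embryos at each of LB and Sph, with LB HYPO at 0 to 30.4 and Sph HYPO at 0 to 18.4 CPM, though neither comparison called it. Of M cells 45 of 47 were over TPM 1, and of LB HYPO cells 10 of 36.

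The most abundant of the fatty acid and cofactor carriers, SLC25A17, was not called and stayed between 91.5 ± 60.7 TPM in LB HYPO and 193 ± 72.8 TPM in Sph HYPO. SLC25A32, which carries folate and FAD, was over TPM 1 in 36 of 47 M cells and 5 of 24 ICM cells. Between M and ICM it was called by limma (adjusted p = 0.00411) but not by edgeR (0.146). The coenzyme A carriers SLC25A42 and SLC25A16 and the S-adenosylmethionine carrier SLC25A26 were not called by edgeR in any comparison.

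Of the 6 amino acid carriers, SLC25A44, which takes branched-chain amino acids into mitochondria, was called once, higher in M and ICM than in EPI by 1.71 (SE 0.52, adjusted p = 0.0207). Its mean was 129 ± 35.4 TPM in M and 85.3 ± 42.2 in ICM, against 30.2 ± 25.3 in LB EPI and 28.8 ± 10.3 in Sph EPI. The call was lost without Sph EPI embryo D (adjusted p = 0.0529) or F (0.0595), in the last 4 pools (0.177) and with all labels in one fit (0.21). SLC25A13 (citrin), an aspartate/glutamate carrier of the malate-aspartate shuttle, had CPM of 270.3 in C, 421 in E and 134 in F in Sph HYPO and 24.4 to 62.2 (median 49.7) in Sph EPI. The groups did not overlap, and the log2 fold change of -2.55 (SE 0.61, adjusted p = 0.0818) missed the threshold by edgeR, while DESeq2 (adjusted p = 0.000754) and limma (0.0307) called it.

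Its relative SLC25A12 (aralar) went the other way in spherical embryos. It had 1580 counts in Sph EPI, with 0 in embryo E, and 0 in the 3 Sph HYPO sums (adjusted p = 0.226 by edgeR, 0.00773 by DESeq2). Of Sph EPI cells 16 of 48 were over TPM 1, and of Sph HYPO cells 0 of 12 (a limit of 25%). Against a floor of 3 counts over Sph HYPO the EPI level was 117-fold higher, which with so few cells is no lower bound. The glutamate carrier SLC25A22 was 113 in AL, 123 in AM, 73.1 in AN, 112 in AO and 110.2 in AP CPM in LB HYPO and 2.2 in AN, 25.7 in AO, 24.5 in AP and 9.59 in AQ in LB EPI. All LB HYPO embryos lay above all LB EPI embryos, and HYPO was higher in 3 of 3 shared embryos, at a log2 fold change of -2.81 (SE 0.80, adjusted p = 0.109) by edgeR, with adjusted p = 0.000567 by DESeq2 and 0.00308 by limma. SLC25A22 was also 0.15 to 16.3 (median 5.63) CPM in M, below the 24.1 to 68.4 (median 36.7) of EB ICM without overlap, with a log2 fold change of -2.63 (SE 0.83, adjusted p = 0.0878) by edgeR and adjusted p = 0.00151 by DESeq2 and 0.000323 by limma. The ornithine carrier SLC25A15 and the glycine carrier SLC25A38, needed for haem synthesis, were not called by edgeR, and DESeq2 called SLC25A15 between ICM and LB EPI (adjusted p = 0.0432). The genes SLC25A13 and SLC25A22 were named here after their values were seen.

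Of the glutathione carriers, SLC25A39 was lower in M and ICM than in EPI by -1.67 (SE 0.59, adjusted p = 0.0414). Its mean was 14 ± 12.8 TPM in M and 41 ± 22.1 in ICM, against 95.8 ± 50.8 in LB EPI and 57.1 ± 18 in Sph EPI. The call was lost in 9 of 23 fits that left out 1 embryo (0.0131 to 0.0989), in the last 4 pools (0.269) and with all labels in one fit (0.0816). Its relative SLC25A40 was lower in level, at 9.15 TPM over the labels, and was not called.

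Among the other carriers, SLC25A43 (ENSSSCG00000012624), whose substrate is not known, had the largest log2 fold change toward M and ICM over EPI. Its CPM was 40.5 to 267 (median 86.1) in M, 0 to 56.7 (median 19.2) in EB ICM and 0 to 109.6 (median 40.3) in EB TE. In LB EPI 4 counts were seen over 4 embryos, with 0 in AN, 0.256 in AO, 0 in AP and 0.0536 in AQ CPM, and Sph EPI had 3.27 in C, 0 in D, 0 in E and 0.464 in F. Every M embryo lay above every EPI embryo, while ICM embryo AE, at 0, fell among them. LB HYPO had 0 in AL, 3.35 in AM, 7.16 in AN, 26.4 in AO and 7.59 in AP, and Sph HYPO 0 in C, 0 in E and 1.89 in F. The log2 fold change of M and ICM over EPI was 7.48 (SE 1.20, adjusted p = 8.26e-05), and it held in all 23 fits that left out 1 embryo (7.13 to 8.53). ICM against LB EPI gave 8.01 (SE 2.15, adjusted p = 0.0597), and LB EPI against LB HYPO -6.65 (SE 2.39, adjusted p = 0.208), both by edgeR. DESeq2 called both (adjusted p = 3.41e-07 and 0.000469), and edgeR with all labels in one fit called the first (0.0197). M against ICM was called by DESeq2 alone (0.044, against 0.119 by edgeR). Sex, which is partly mixed with label between LB EPI and LB HYPO, was not tested for SLC25A43.

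In cells, SLC25A43 was over TPM 1 in 37 of 47 M cells, 16 of 28 TE cells, 9 of 24 ICM cells and 12 of 36 LB HYPO cells. It was so in 0 of 25 LB EPI cells (a limit of 12%), 3 of 48 Sph EPI cells and 1 of 12 Sph HYPO cells. SLC25A43 and SLC25A5 are neighbours in the RefSeq annotation of Sscrofa11.1, with no protein-coding gene between them, and both had their lowest mean in LB EPI. In M, where SLC25A43 was highest, the mean of SLC25A5 was below that of EB TE.

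SLC25A46, an outer membrane protein that shapes mitochondria, was higher in M and ICM than in EPI by 2.12 (SE 0.75, adjusted p = 0.0432), a call lost in 17 of 23 fits that left out 1 embryo (0.0419 to 0.107) and in the first and the last 4 pools (0.0823 and 0.11). SLC25A53, also without a known substrate, had 10.6 in C, 0 in D, 12.4 in E and 2.3 in F CPM in Sph EPI and 0 counts in the sums of the other 6 labels. Its 540 counts came from 5 of 48 cells (10.4%) in 3 of 4 embryos. In LB EPI 0 of 25 cells were over TPM 1, with a limit of 12%. Against a floor of 3 counts over LB EPI the level was 80.2-fold, which with so few cells is no lower bound. As SLC25A53 entered the tests through its 5 Sph EPI cells alone, these values are a description. SLC25A35 was lower in M and ICM than in EPI (edgeR adjusted p = 0.0209), with 10 counts in M, 0 in ICM, 91 in LB EPI and 386 in Sph EPI, and without LB EPI embryo AO the adjusted p was 1. SLC25A48, linked to choline, and the liver carrier SLC25A47 were not called by edgeR.

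**Figure D4:**
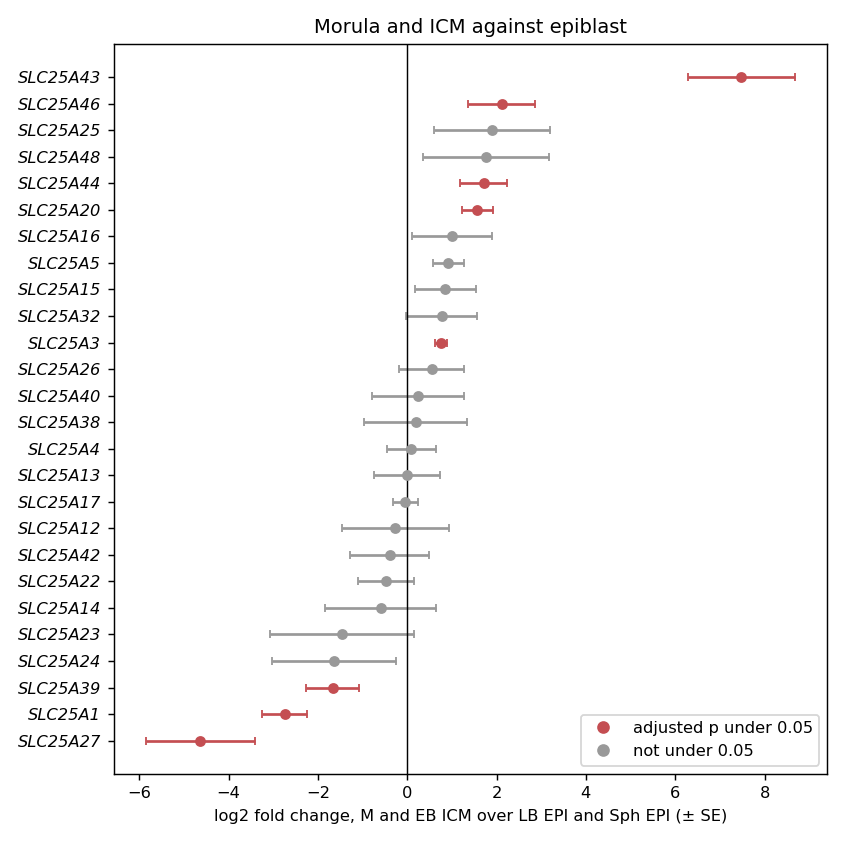
log2 fold change (± SE) of M and EB ICM over LB EPI and Sph EPI for 26 carriers, in red where the edgeR adjusted p is under 0.05. SLC25A43 stands at 7.48 and SLC25A27 at -4.63, and 4 carriers with 3 counts or fewer in a group are left out.

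Genes that work beside the carriers were read from a list of import, channel and shuttle genes, of which 25 were tested. Over the 7 labels 9 of 25 differed (36%, beside the 37.7% of all genes), and between M and ICM and EPI 6 of 25 (24%, beside 21.8%). SFXN1, a sideroflexin that imports serine into mitochondria, had the smallest p in both. Its CPM was 387 to 853 (median 555) in EB ICM and 67.9 in AN, 47.5 in AO, 28.5 in AP and 29.2 in AQ in LB EPI, without overlap. LB HYPO, of the same stage as LB EPI, had 287 in AL, 538 in AM, 593 in AN, 591 in AO and 492 in AP. ICM was higher than LB EPI by 3.69 (SE 0.40, adjusted p = 0.000104), LB EPI lower than LB HYPO by -3.56 (SE 0.44, adjusted p = 0.00173) and M lower than ICM by -1.31 (SE 0.24, adjusted p = 0.00487). In VDAC1, the outer membrane channel, LB EPI had 119 in AN, 348 in AO, 167 in AP and 118 in AQ CPM and LB HYPO 782 in AL, 1248 in AM, 1024 in AN, 1002 in AO and 1117 in AP, and LB EPI was lower by -2.50 (SE 0.37, adjusted p = 0.00409).

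MPC2, a subunit of the mitochondrial pyruvate carrier, was lower in M than in ICM by -1.02 (SE 0.23, adjusted p = 0.0183) and lower in M and ICM than in EPI by -1.0 (SE 0.17, adjusted p = 0.000124). GOT1, the cytosolic aminotransferase of the malate-aspartate shuttle, was higher in M and ICM than in EPI by 1.47 (SE 0.33, adjusted p = 0.0026). The other called genes between M and ICM and EPI were MDH1, CPT1A and VDAC1. None of the 25 was called by edgeR for ICM against TE, LB against Sph EPI, Sph EPI against HYPO or the stage difference. An unadjusted p under 0.05 was reached by 4 (all genes 18.9%), 7 (all genes 13.6%), 4 (all genes 15.2%) and 6 (all genes 10.8%) in turn.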

How the data were processed

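Single cells of pig embryos were sequenced with the Smart-seq2 protocol on polyadenylated RNA. The authors trimmed the reads, aligned them with HISAT2 2.1.0 to pig assembly v10.2, kept reads that mapped uniquely and counted them per gene of Ensembl build 87 with htseq-count. The authors had removed cells with low read counts or much mitochondrial RNA, and 4 outliers. Deposited were raw counts for each gene in each cell, and TPM values that the authors calculated, in which reads are scaled for gene length and depth. The 22840 gene entries were matched to symbols through a table of Ensembl names that covered 11437 identifiers and 75.3% of the counts.

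Counts of cells sharing an embryo and a label were added up. Genes over TPM 1 in at least 3 cells were kept, scaled by TMM and tested with the quasi-likelihood F test of edgeR 4.0.16 (R 4.3.3), adjusting by Benjamini-Hochberg over all 14721 genes and a threshold of 0.05. Each comparison used its own labels, and a fit of all 7 labels tested any difference among them. Log2 fold changes are positive where the label named first is higher, and the SE is the fold change over the root of F. No size is given where a group held 1 to 3 counts, nor, for M and ICM against EPI, where 1 of the 4 groups held 0. Where all sums of a group held 0 counts, the fold given assumes 3 counts in that group. It covers the counting of reads only, not which cells were sampled, and is no lower bound. With RLE in place of TMM scaling, the all-gene median of the log2 fold change moved by 0.12 in LB EPI against LB HYPO, by -0.13 in Sph EPI against Sph HYPO and by 0.22 in the stage difference.

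Levels between genes were compared in TPM, averaged over the cells of each embryo. Shares of cells over TPM 1 carry exact Clopper-Pearson 95% intervals, and shares of 0 the limit that 3 cells allow; both cover counting error only. The calling steps were tested on 1 set of simulated sums per comparison, with 200 of 14721 genes changed 8-fold. The share recovered was highest for M against ICM (37.5%) and lowest for the stage difference (3%). Over the 7 labels, with Sph HYPO alone changed, the share was 10.5%, beside 10 false calls. False calls ran from 1 (ICM against TE and the stage difference) to 18 (Sph EPI against Sph HYPO). Most changes of this size were thus missed. Tables were handled with pandas 2.3.3 and scipy 1.17.1 in Python 3.11.15, and plotted with matplotlib 3.10.9.

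Cells of EB ICM and EB TE, or of EPI and HYPO, often came from the same embryo, so the embryo pairs these sums. In residuals from the group means over 6896 genes, the median correlation of sums from 1 embryo was 0.044 for the 7 pairs of EB, 0.025 for the 3 of LB and 0.064 for the 3 of Sph, while sums of different embryos had -0.0072, -0.016 and -0.04. No block was used in the main fit, and an embryo block was tried beside it. Further settings were DESeq2 1.42.0, RLE scaling, no filter on low counts, limma 3.58.1 on the mean log2(TPM + 1), no sums of a single cell, dropping the 2 cells whose embryo is less sure (the sums E6-ER and part of AP), all labels in one fit, the first 4 or the last 4 library pools, and each embryo left out in turn. Whether embryos shared a sow was not given, so p-values measure the spread between these embryos.

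The carriers and the lists were chosen with earlier results of these data known. Values by embryo were printed for SLC25A1, UCP2, the 8 called carriers of smallest p over the 7 labels and up to 4 called carriers of each other comparison. Named beside them were the largest log2 fold changes among carriers with at least 100 counts, the most abundant carriers overall and of each role, and up to 3 called neighbours in function for each comparison. Of the carriers, 1 is not reported here, although counts and sums over the carriers include it.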

Additional observations from a re-analysis of the deposited data

Results flagged for a closer look

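Among the 8 carriers given by embryo, 42 combinations of carrier and label with 4 to 10 embryos were searched for an embryo far from the others on the log2(CPM + 1) scale, and 6 were found. An embryo was picked where its gap to the nearest other, divided by the whole range, exceeded Dixon's 95% critical value, which for normally scattered values picks about 1 group in 20. That rate does not apply to labels at or near 0, where a single count is enough. SLC25A1 stood low in ICM embryo AA, at 5.59 CPM where the other ICM embryos had 20.5 or more. SLC25A43 was at 0 CPM in ICM embryo AE, while the other 6 ICM embryos had counts. The remaining 4 were single high embryos in labels that were otherwise at or near 0. UCP2 had 0.179 CPM in M embryo ER and 0.187 CPM in TE embryo AI, each from 1 count. SLC25A24 had 0.422 CPM in TE embryo AF, from 1 count. SLC25A27 had 1.96 CPM in ICM embryo AG, from 14 counts.

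A morula cell whose identifier ties it to no embryo entered no test. It held SLC25A3 at 3622 TPM, SLC25A5 at 625.3 TPM, SLC25A43 at 21.3 TPM and SLC25A1 at 18.3 TPM, and the other 4 carriers at 0 TPM.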

How the results depend on the processing

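Of 234 recomputed counts and levels, 198 stayed within 1.5 times the reported value, among them the count over the 7 labels (9 to 11 when 1 embryo was left out) and the 22 carriers over 10 TPM. Calls between neighbouring labels were the least stable, and percentages in parentheses are the share of all genes called under the same setting. Against 0 calls for M and ICM, DESeq2 made 4 (8.9%), limma 3 (4.52%), sums of at least 2 cells 1 (2.71%) and all labels in one fit 1 (2.74%), with 0 to 1 when 1 embryo was left out (1 without ICM embryo AD). Against 0 for ICM and TE, DESeq2 made 1 (3.47%) and all labels in one fit 3 (5.88%). Against 3 for ICM and LB EPI, DESeq2 and limma made 6 each (10.9% and 6.58%), sums of at least 2 cells 1 (3.04%), the first 4 pools 1 (0.836%) and the last 4 pools 0 (1.32%), with 1 to 3 when 1 embryo was left out (1 without ICM embryo AA or AC or any single LB EPI embryo). Against 1 for LB EPI and LB HYPO, DESeq2 made 3 (11.4%), limma 2 (4.73%) and the last 4 pools 0 (0.435%), with 0 to 1 when 1 embryo was left out (0 without LB EPI embryo AN, AO or AQ or LB HYPO embryo AM, AO or AP). DESeq2 made 1 call (6.49%) against 0 for LB EPI and Sph EPI, 4 (11.5%) against 0 for Sph EPI and Sph HYPO (limma 2, 2.49%, and 0 to 2 when 1 embryo was left out, with 2 without Sph HYPO embryo F) and 1 (4.07%) against 0 for the stage difference. Against 11 for M and ICM over EPI, all labels in one fit made 7 (18.7%) and the last 4 pools 4 (14%), with 9 to 11 when 1 embryo was left out. Pairing by embryo as a block ended the SLC25A5 call in late blastocysts (0 calls against 1, 0.136%) and gave 1 call, of UCP2 (0.0883%), against 0 for the stage difference, and it changed no other call. The causes were not tested.

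Signs turned only for log2 fold changes that were not called. For SLC25A1, ICM over TE was 0.50 with limma, 0.62 in the last 4 pools and -0.37 to 0.13 with 1 embryo left out (turned without TE embryo AE), against -0.22. LB EPI over LB HYPO was -0.71 with the block, LB EPI over Sph EPI was -1.64 to 0.72 and Sph EPI over Sph HYPO -0.16 to 2.08 with 1 embryo left out, both turned without Sph EPI embryo E, and the stage difference was -0.76 in the last 4 pools, -1.90 with the block and -0.21 to 2.01 with 1 embryo left out, turned without LB EPI embryo AQ or Sph HYPO embryo C. SLC25A14, ICM over TE, was 0.42 with the block. For the stage difference of SLC25A35, with a group at 0 counts, limma gave -0.15, the last 4 pools -0.32, and leaving out 1 embryo -2.26 to 6.35, turned without LB EPI embryo AO or Sph HYPO embryo F. Of 1458 values of single genes, 1337 kept sign and side of the threshold, 91 lost a call and 15 gained one. Few embryos per label, single-cell sums and patchy low counts limit these data, and a call that was not made does not show that levels were equal.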
